A study of Mus musculus with 3 samples.

Results

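Neighbouring H3K4me3 regions separated by at most 2 kb were examined in the hippocampus of Huntington's disease model mice and of their wild-type littermates. The HD library came from N171-82Q transgenic mice and the WT library from wild-type littermates. Both were adult C57/DBA F1 hybrid males, no age beyond adult is given, and each library was made from hippocampi pooled from 3 mice. The N171-82Q line carries a transgene for a short N-terminal piece of human huntingtin with an expanded glutamine stretch under the mouse prion protein gene promoter, next to the animals' own huntingtin genes. Whole hippocampus holds neurons and glia, so a gap or an edge is an average over cell types. Per the labels, the WT reads were also part of an earlier deposit. The input DNA library of the study was not analysed here.

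Peaks of the HD list (19631 peaks) and the WT list (18515 peaks) that overlapped by at least 1 bp were joined into 20211 regions. Of these, 17367 held peaks of both libraries, and 16691 of those had a mean covered length below 5000 bp. A region belonged to the set described here when the nearest other region of these 16691 lay within 2 kb. This gave 991 regions, 5.94% of the 16691 (95% exact binomial interval 5.58 to 6.31%), with 1009 HD peaks and 1001 WT peaks. The regions were chosen by the measured peak positions and covered lengths in both lists, so the lengths of the joined gaps below describe the choice. Each genotype had a single library, so differences between HD and WT have no replicate check and carry no p-value. All intervals cover counting error over regions or pairs only. They treat each region or pair as separate, although members come in groups of neighbours, so intervals on shares of member regions are too narrow. The lists give no number of reads per peak, and sequencing depth is therefore unknown.

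Trimethylation of lysine 4 on histone H3 is deposited at promoters by the SET1 and MLL enzyme complexes and is bound by general transcription factors and chromatin remodellers. The mark typically sits on the nucleosomes on both sides of a transcription start site and is low over the nucleosome-free stretch between them and in DNA with methylated CpGs. Neighbouring marked stretches can belong to a pair of divergent genes, to alternative promoters of a gene, or to a single broad domain that a peak caller divided. Which of these holds for a given pair was not analysed here, because no gene annotation of the peaks' genome build, mm9, was used.

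The 991 regions formed 510 adjacent pairs. Most stood as isolated pairs: 455 groups held 2 regions, 23 held 3 and 3 held 4. In 487 of the 510 pairs (95.5%, interval 93.3 to 97.1%) both regions held exactly 1 peak of each library. The joined gap, the stretch between the regions after joining both lists, had a median of 950.5 bp with quartiles of 397 and 1466 bp. The pair as a whole spanned a median of 5856 bp, and the region centres lay 3423 bp apart. The peaks of a pair together covered a median of 4344 bp in HD and 4662 bp in WT.

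Joined gaps ran over the whole permitted range, and the shortest class was the most crowded for its width. Gaps of up to 200 bp numbered 83, those over 200 and up to 500 bp 68, those over 500 and up to 1000 bp 114, those over 1000 and up to 1500 bp 126, and those over 1500 and up to 2000 bp 119. The shortest joined gap was 3 bp, on chromosome 10 between 108442090 to 108444153 and 108444157 to 108449341, where the HD gap was 459 bp and the WT gap 3 bp. A joined gap of 4 bp on chromosome 6, between 28369480 to 28372738 and 28372743 to 28375473, corresponded to 415 bp in HD and 49 bp in WT. Another of 4 bp on chromosome 12, between 11441142 to 11444727 and 11444732 to 11445356, corresponded to 118 bp in HD and 4 bp in WT. All 3 gaps were longer in HD, and in the first and the last of them the joined gap was the WT gap itself.

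At the far end of the range stood the pairs just inside the limit. Joined gaps of 1994 bp lay on chromosome 8 between 87317133 to 87319026 and 87321021 to 87325200, with 2019 bp in HD and 2060 bp in WT, and on chromosome 15 between 76526717 to 76529053 and 76531048 to 76533284, with 2029 bp in HD and 2460 bp in WT. On chromosome 9 a joined gap of 1987 bp followed 20954985 and measured 1987 bp in HD and 2216 bp in WT. Nearest beyond the limit were joined gaps of 2001 bp on chromosome 2 (2710 bp in HD and 2001 bp in WT), 2008 bp on chromosome 8 (2535 bp in HD and 2008 bp in WT) and 2017 bp on chromosome 5 (2274 bp in HD and 2062 bp in WT). Inside the limit these 3 gaps were shorter in HD and outside it all 3 were longer, within the scatter over all pairs given below.

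Gaps between adjacent regions were on the whole somewhat longer in HD. The median gap was 1196.5 bp in HD (interval 1096 to 1277 bp) and 1060.0 bp in WT (972 to 1180 bp). Pair by pair, HD minus WT had a median of 106 bp (interval 79 to 150 bp; quartiles -58.8 and 322 bp), and its SD over pairs was 378 bp. The gap was longer in HD in 340 pairs, 66.7% (62.4 to 70.7%), and shorter in 170. Among all 16670 neighbouring regions of the 16691, whatever their distance, 68.9% had a longer gap in HD, so the share in the close pairs was near this background. Gaps over 200 bp longer in HD made up 39.0% of the close pairs, 199 pairs, against 41.2% of all neighbours, and gaps over 200 bp shorter made up 13.5%, 69 pairs, against 12.5%.

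**Figure D1:**
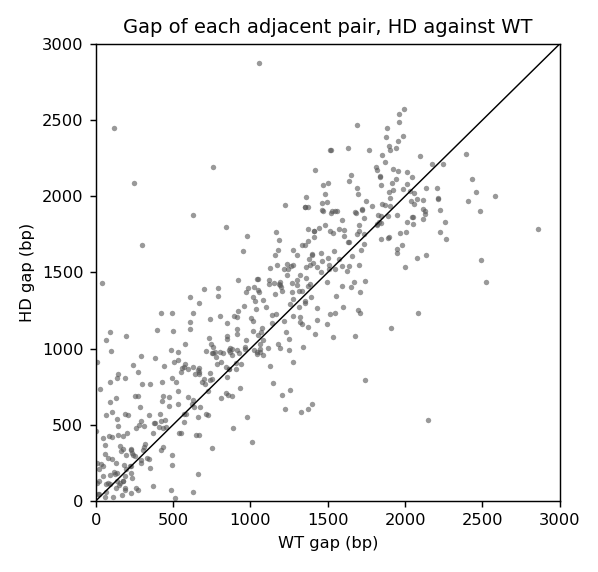
Gap between the peaks of each of the 510 adjacent pairs in the HD library (vertical axis, bp) and the WT library (horizontal axis, bp), with 1 point per pair and the line of equality. More points lie above the line, 340 against 170, and the points scatter widely around it at every gap length.

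The same difference in bp weighs more when the gap is short. More than 1.5-fold longer in HD were 105 gaps (20.6%), and more than 1.5-fold shorter were 38 (7.45%). Over all neighbours these shares were 0.642% and 0.234%, which reflects that a fold of this size is hard to reach over a distance of many kilobases. Of the 105 longer gaps, 47 lay among the 83 joined gaps of up to 200 bp and 30 among the 68 over 200 and up to 500 bp. Of the 38 shorter gaps, 17 and 7 lay in the same classes. The joined gap is never longer than the HD or the WT gap, so a short joined gap favours large folds in either direction. In bp, the median difference was 108 bp (30 to 182 bp) in the shortest of these classes, 134 bp (57 to 228 bp) in the next, 125 bp (74 to 197 bp) over 500 and up to 1000 bp, 162 bp (85 to 227 bp) over 1000 and up to 1500 bp, and 64 bp (-3 to 117 bp) over 1500 and up to 2000 bp. The intervals of these classes overlapped, and in the last of them the interval held 0.

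Close pairs whose 4 peaks were all strong showed the same direction. In 151 pairs the lowest of the 4 scores was at least 500, and the gap there was 1373 bp in HD and 1118 bp in WT by the median, with a median difference of 163 bp (93 to 228 bp) and a longer gap in HD in 110 pairs (72.8%, 65.0 to 79.8%). In the 160 pairs with a score below 100 among the 4, the medians were 996.5 bp in HD and 864.5 bp in WT and the difference 99.0 bp (45 to 160 bp), with 65.0% longer in HD (57.1 to 72.4%). Both intervals held the 68.9% of all neighbours with a longer gap in HD. The share among neighbours at any distance that pass the same score limits is not given here. The score is the authors' own value per peak and depends on its library, so these classes mix the scales of both lists.

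The edges that face the gap were set beside the outer edges of the same regions. A pair is a member only when its gap is open in both lists, which limits the facing edges and not the outer ones. The comparison therefore cannot decide whether the gap side stood apart. An inward shift is positive when the HD peak ends inside the WT peak. Edges facing the gap lay inward in HD by a median of 58 bp (47 to 71 bp, 1020 edges) and edges facing away by 50 bp (39 to 65 bp). Set against each other within a region, the facing edge moved 5 bp further inward than the outer edge by the median, with an interval of -17 to 24 bp that held 0. By class of joined gap, the facing and outer medians were 38.5 and 56 bp up to 200 bp, and 74.5 and 84 bp up to 500 bp. They were 59 and 28.5 bp up to 1000 bp, 65 and 25 bp up to 1500 bp, and 48 and 63.5 bp up to 2000 bp. The order thus differed between classes, and the intervals of both medians overlapped in each class. Regions with no such neighbour within 2 kb had a median of 63 bp (60 to 65 bp) over both edges. Between regions 2 to 5 kb apart (770 pairs) the facing edges lay inward by 48 bp (38 to 56 bp) and the outer ones by 50 bp (42 to 58 bp).

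**Figure D2:**
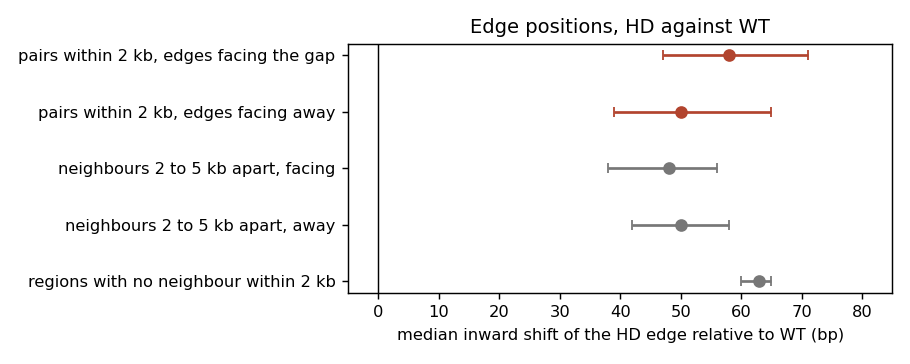
Median inward shift of HD edges relative to WT edges (bp) with 95% order-statistic intervals over edges, for adjacent pairs (upper pair of points) and for more distant or solitary regions. The facing edges at 58 bp and the outer edges at 50 bp have overlapping intervals.

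Counted by edge, 39.8% of facing edges (36.8 to 42.9%) and 38.7% of outer edges (35.7 to 41.8%) lay over 100 bp inward in HD, against 41.8% of the edges of all 16691 regions. Over 100 bp outward lay 204 of the 1020 facing edges (17.6 to 22.6%) and 196 of the outer edges (19.2%, 16.8 to 21.8%), against 18.2% in all. These shares at the gap lay near those of peak edges in general.

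The edges on either side of a gap varied without much relation to each other. The HD gap extended beyond the WT gap on both sides in 206 pairs (40.4%), lay inside it in 62 (12.2%) and was displaced to one side in 242 (47.5%), 124 to the left and 118 to the right. Among neighbours over 5 kb apart these shares were 42.6%, 12.9% and 44.5%, near those of the close pairs. Across the 510 pairs, which partly share regions and all come from the same pair of libraries, the inward shifts of the facing edges had a Pearson r of 0.05 and a Spearman rho of 0.03. For the outer and inner edge of the left region these values were 0.06 and 0.05, and for those of the right region 0.06 and 0.02.

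Single pairs departed far more than the median. Among the 336 pairs of single peaks in which all 4 scores were at least 100, the gap that was longest in HD relative to WT lay on chromosome 1 between 145487106 to 145491818 and 145491934 to 145494634. It measured 2450 bp in HD and 115 bp in WT. On its left the peak covered 2560 bp in HD and 4713 bp in WT, with its gap edge 1920 bp further in, while the right peak covered 2286 bp in HD and 1721 bp in WT and had an inward shift of -980 bp, that is outward, on its far side. The left peak thus made the largest part of the difference.

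On chromosome 15, between 85482944 to 85486976 and 85487226 to 85489389, the gap was 2090 bp in HD and 249 bp in WT, and the left peak covered 2309 bp in HD and 4033 bp in WT. On chromosome 3, between 60331017 to 60333475 and 60333534 to 60335973, it was 1107 bp in HD and 88 bp in WT. There the right peak made the difference, with 1022 bp in HD and 2440 bp in WT, whereas the left peak covered 2410 bp in HD and 2429 bp in WT. On chromosome 7, between 52145722 to 52149320 and 52150164 to 52153231, all 4 scores exceeded 1000 and the gap was 1795 bp in HD and 843 bp in WT. Both flanking edges took part there, with inward shifts of 566 bp (left) and 386 bp (right). The other pairs of this rank lay on chromosome 2 between 94080122 to 94083025 and 94083033 to 94087882, with 914 bp in HD and 7 bp in WT, and on chromosome 10 between 75295655 to 75298950 and 75299143 to 75301199, with 1081 bp in HD and 192 bp in WT.

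At the other extreme, the gap that was shortest in HD relative to WT lay on chromosome 3, between 145311040 to 145314331 and 145314862 to 145316979, where it measured 530 bp in HD and 2146 bp in WT. Both peaks were longer toward the gap in HD: the left covered 3292 bp in HD and 2499 bp in WT, and the right 2118 bp in HD and 1209 bp in WT. Their far edges had inward shifts of -17 and -69 bp.

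On chromosome 7, between 133919142 to 133922406 and 133923201 to 133925315, the gap was 794 bp in HD and 1742 bp in WT. On chromosome 16, between 17802243 to 17804949 and 17806488 to 17808474, it was 1583 bp in HD and 2489 bp in WT, and the left peak alone made the difference, with 2707 bp in HD and 1598 bp in WT. A second pair on chromosome 7, between 77509400 to 77512357 and 77513592 to 77515718, had a gap of 1234 bp in HD and 2085 bp in WT. On chromosome 12, between 54347026 to 54350857 and 54351990 to 54355721, the gap was 1132 bp in HD and 1910 bp in WT with all 4 scores above 900, and the right peak made nearly all of it with 3611 bp in HD and 2986 bp in WT. On chromosome 5, between 23853426 to 23855302 and 23855936 to 23858842, it was 633 bp in HD and 1398 bp in WT. Over all 510 pairs, 61 gaps (12.0%, 9.27 to 15.1%) were over 500 bp longer in HD, against 12.1% of all neighbours, and 20 (3.92%, 2.41 to 5.99%) were over 500 bp shorter, against 2.72%.

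**Figure D3:**
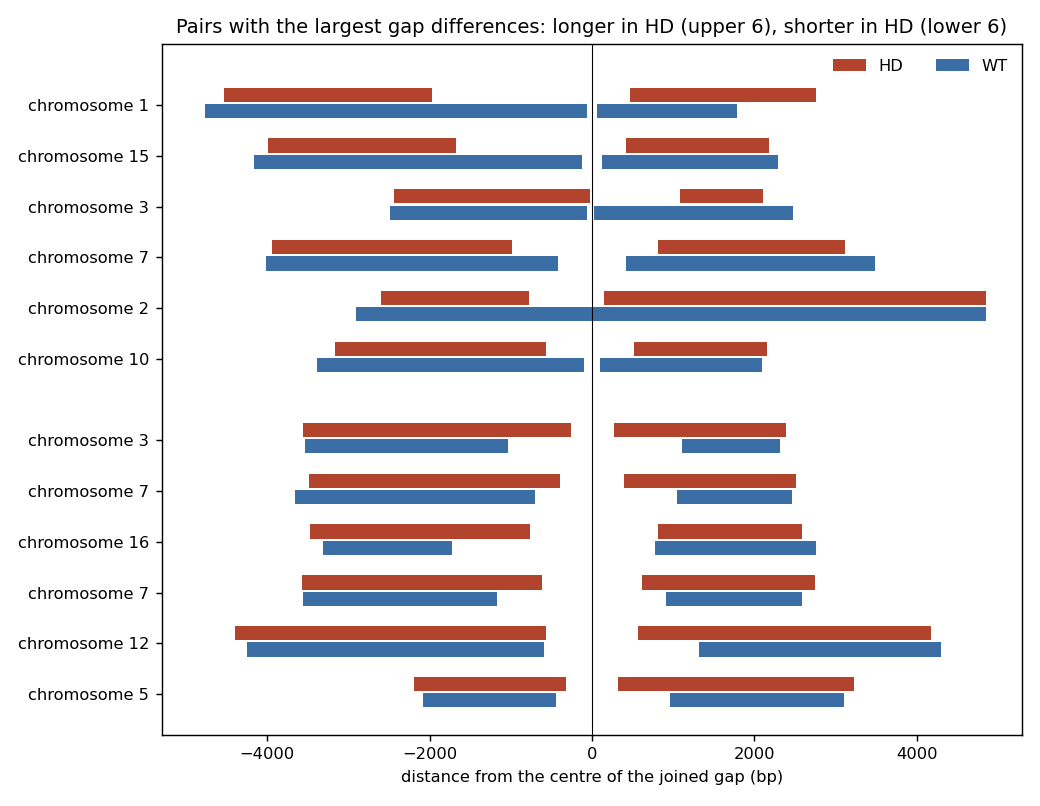
Peaks of the 12 pairs with the largest gap differences, drawn as bars over the distance from the centre of the joined gap (bp), with HD above WT in each pair. In the upper 6 pairs the HD gap exceeds the WT gap by 889 to 2335 bp, and in the lower 6 the HD minus WT difference lies between -1616 and -765 bp.

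The 4 strongest pairs, taken by the lowest of their 4 peaks when each is ranked within its own list, did not share a direction. On chromosome 11, between 97880306 to 97885090 and 97887038 to 97889845, both HD peaks scored 3100, the WT peaks scored 2642 and 2609, and the gap was 1947 bp in HD and 2057 bp in WT. On chromosome 6, between 128786995 to 128790340 and 128791742 to 128794745, it was 1613 bp in HD and 1401 bp in WT. On chromosome 17, between 25320311 to 25322680 and 25324340 to 25327453, it was 1722 bp in HD and 1844 bp in WT. On chromosome 10, between 127527702 to 127532096 and 127533506 to 127535866, it was 1730 bp in HD and 1409 bp in WT. HD minus WT was 212 bp on chromosome 6 and 321 bp on chromosome 10, and -110 bp on chromosome 11 and -122 bp on chromosome 17.

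The regions of a pair were usually of unequal width. The wider region covered a median of 1.55 times the narrower one in HD (1.48 to 1.61) and 1.502 times in WT (1.46 to 1.59). Widths within 1.2-fold of each other were found in 120 pairs in HD (23.5%, 19.9 to 27.5%) and 114 in WT (22.4%, 18.8 to 26.2%), 66 of them shared. Over 2-fold apart were 136 pairs in each library (26.7%, 22.9 to 30.7%), 105 of them shared. Among neighbours over 5 kb apart, 26.0% in HD and 26.3% in WT were within 1.2-fold, and 22.3% in HD and 22.6% in WT were over 2-fold apart. Regions 2 to 5 kb apart had a median ratio of 1.42 in HD (1.38 to 1.46) and 1.39 in WT (1.35 to 1.43), and neighbours over 5 kb apart 1.46 in both libraries. The left region in genome order was the wider in 52.9% of pairs in HD and 53.5% in WT, with intervals that held an even split.

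Asymmetry was carried over from one library to the other. The same region was the wider in both libraries in 455 of 510 pairs (89.2%, 86.2 to 91.8%), against 88.1% of neighbours over 5 kb apart. The log2 of left over right covered length had a Pearson r of 0.91 and a Spearman rho of 0.91 between HD and WT over the 510 pairs. These points share the chromatin positions and the peak caller, and neighbours over 5 kb apart gave 0.92 and 0.92. The width ratio was larger in HD in 275 pairs (53.9%, 49.5 to 58.3%), and the median log2 of the HD over the WT ratio was 0.02 with an interval of -0.01 to 0.04.

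**Figure D4:**
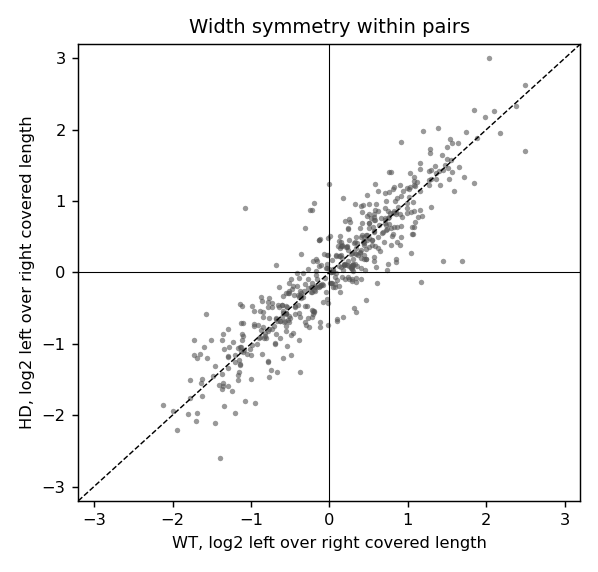
Log2 of the left over the right covered length within each of the 510 pairs, in HD (vertical axis) and WT (horizontal axis), 1 point per pair, with the dashed line of equality. Points lie along the line, and in 455 pairs the same region is wider in both libraries.

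Among the 336 pairs of single peaks with every score at 100 or above, those most alike in width, by the mean of both libraries, lay on chromosomes 3, 11, 6 and 19. On chromosome 3, at 146344478 to 146346168 and 146347455 to 146349086, the regions covered 1558 and 1632 bp in HD and 1654 and 1580 bp in WT, with a gap of 1419 bp in HD and 1303 bp in WT. On chromosome 6, at 128709654 to 128711670 and 128713178 to 128715239, the gap was 1522 bp in HD and 1511 bp in WT, yet the scores were 2002 and 709 in HD and 1101 and 501 in WT. Regions of like width thus did not need like scores. The least alike of the 336 lay on chromosome 12 at 62621814 to 62623200 and 62623232 to 62628181, with 1222 and 4710 bp in HD and 1242 and 4950 bp in WT, a gap of 132 bp in HD and 176 bp in WT, and scores of 197 and 3099 in HD and 177 and 2573 in WT. The next least alike of them had their narrow region at 23848627 to 23849938 on chromosome 13, at 123840591 to 123842111 on chromosome 5 and at 88228502 to 88230097 on chromosome 12.

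As fold ratios, scores within a pair were further apart than widths, but score and length are unlike scales. The higher score was a median of 2.92 times the lower one in the HD list (2.68 to 3.46) and 3.04 times in the WT list (2.64 to 3.39). The medians for neighbours 2 to 5 kb apart were 2.25 (2.02 to 2.41) in HD and 2.27 (2.11 to 2.42) in WT, and for those over 5 kb apart 2.37 (2.32 to 2.43) in HD and 2.48 (2.43 to 2.53) in WT. These intervals did not overlap with those of the close pairs, in either library. No test between regions was run, and the ratio is compressed at the top because many HD peaks share the score 3100. Scores over 10-fold apart were found in 107 pairs in HD (21.0%) and 93 in WT (18.2%), against 18.0% and 17.3% of neighbours over 5 kb apart. The wider region also had the higher score in 82.2% of pairs in HD (78.6 to 85.4%) and 83.9% in WT (80.4 to 87.0%). This held for 79.7% in HD and 80.4% in WT of neighbours 2 to 5 kb apart, and for 77.0% in HD and 79.2% in WT of those over 5 kb apart.

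Close pairs were made of 2 strong regions less often than neighbours over 5 kb apart. Close neighbours joined by a peak of either library are not counted as pairs, and the part of this in the shares was not tested. The shares for neighbours 2 to 5 kb apart are not given here. Both regions scored above the median of the 16691 regions in 68 pairs in HD (13.3%, 10.5 to 16.6%) and 76 in WT (14.9%, 11.9 to 18.3%), against 27.9% of neighbours over 5 kb apart in each library. Neither region did in 202 pairs in HD (39.6%, 35.3 to 44.0%) and 198 in WT (38.8%, 34.6 to 43.2%), against 26.5% in HD and 26.6% in WT over 5 kb apart. Pairs with 1 region above the median numbered 240 in HD (47.1%) and 236 in WT (46.3%), near the 45.6% in HD and 45.5% in WT of the distant neighbours. The member regions had a median score of 850 in HD and 577 in WT, against 1377 in HD and 900.3 in WT for regions with no neighbour within 2 kb; HD and WT scores are not on a common scale. Their median covered lengths were 2029 bp in HD and 2136 bp in WT, against 2161 bp in HD and 2309 bp in WT for regions with no such neighbour.

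The stronger and the weaker region of a pair were both slightly shorter in HD. In 465 pairs (91.2%) both lists gave the same region the higher score. The higher scoring region covered a median of 2647 bp in HD and 2802 bp in WT, and its log2 HD over WT covered length had a median of -0.08 (-0.09 to -0.06). The lower scoring region covered 1657 bp in HD and 1748 bp in WT, with a median log2 ratio of -0.10 (-0.11 to -0.06). The facing edge lay inward in HD by 58 bp (44 to 76 bp) on the stronger side and by 64 bp (40 to 86 bp) on the weaker side.

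Large changes in length were more often on the weaker side, with a smaller margin when only peaks scoring at least 100 were kept. More than 1.5-fold shorter in HD were 26 of the 465 weaker regions (5.59%, 3.68 to 8.09%) and 9 of the stronger ones (1.94%, 0.889 to 3.64%), against 2.83% of all 16691 regions. More than 1.5-fold longer in HD were 8 weaker regions (1.72%) and 0 stronger ones (upper bound of the interval 0.790%), against 0.767% of all. Neighbours over 5 kb apart showed the same order, with 4.03% of weaker and 1.61% of stronger regions more than 1.5-fold shorter. With only peaks scoring at least 100, the shares in close pairs were 3.12% (1.51 to 5.67%) of weaker and 2.5% (1.09 to 4.87%) of stronger regions. The intervals then overlapped widely. Over all 991 member regions the median log2 ratio was -0.08 (-0.10 to -0.07), against -0.09 (-0.10 to -0.09) in the regions with no neighbour within 2 kb, and 66.5% of members were shorter in HD, against 68.9% of all 16691. The left and right regions of a pair showed little relation in this ratio, with a Pearson r of 0.06 and a Spearman rho of 0.09 over 510 pairs from the same libraries.

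A gap that is closed in one of the libraries cannot be a member, because the bridging peak joins both sides into a single region. Such gaps were counted separately inside the 16691 shared regions. The HD library had 250 gaps that a WT peak bridged, in 245 regions. The WT library had 80 gaps that an HD peak bridged, in 80 regions. On the autosomes alone the counts were 239 HD and 67 WT gaps, and on the X chromosome WT gaps slightly outnumbered HD gaps. Bridged means that 1 peak of the other library covered the position of the gap. In some regions each library had a gap at a different place, and both gaps were then counted. On chromosome 1, for example, a WT gap lay at 95699263 to 95699460 and an HD gap at 95699521 to 95699597. A bridged gap therefore does not always mean an undivided region in the other library. Gaps of such regions were a larger part of the WT set than of the HD set. The bridged gaps were short, with a median of 108 bp in the HD set (88 to 125 bp) and 84.5 bp in the WT set (59 to 102 bp). Of the HD gaps of up to 2000 bp counted here, members and bridged gaps together, 250 of 705 were bridged in WT (35.5%, 31.9 to 39.1%). Of the WT gaps counted, 80 of 548 were bridged in HD (14.6%, 11.7 to 17.8%). The limit on mean covered length applied to the whole joined region of a bridged gap, but to each region of a member pair separately. These values are therefore not the bridged shares of all gaps of that length. With no upper limit on covered length, 439 HD and 129 WT gaps were bridged.

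Among the gaps counted, shorter ones were more often bridged in both directions, and HD gaps more often than WT gaps in each class. A bridged gap counted only when its whole joined region had a mean covered length below 5000 bp. In an open pair each region could reach that limit by itself. Long gaps were thus less able to count as bridged, and the part of this limit in the fall with length was not tested. Up to 50 bp, 68 of 75 HD gaps (90.7%) and 29 of 43 WT gaps (67.4%) were covered by a peak of the other library. Over 100 and up to 200 bp these were 68 of 87 HD gaps (78.2%, 68.0 to 86.3%) and 17 of 52 WT gaps (32.7%, 20.3 to 47.1%). Over 200 and up to 500 bp they were 48 of 104 HD gaps (46.2%, 36.3 to 56.2%) and 11 of 76 WT gaps (14.5%, 7.45 to 24.4%). Over 1000 and up to 2000 bp, 2 of 246 HD gaps and 0 of 231 WT gaps were bridged (upper bound 1.58% in WT). When only peaks with a score of at least 100 were kept, the totals were 98 HD gaps and 33 WT gaps.

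**Figure D5:**
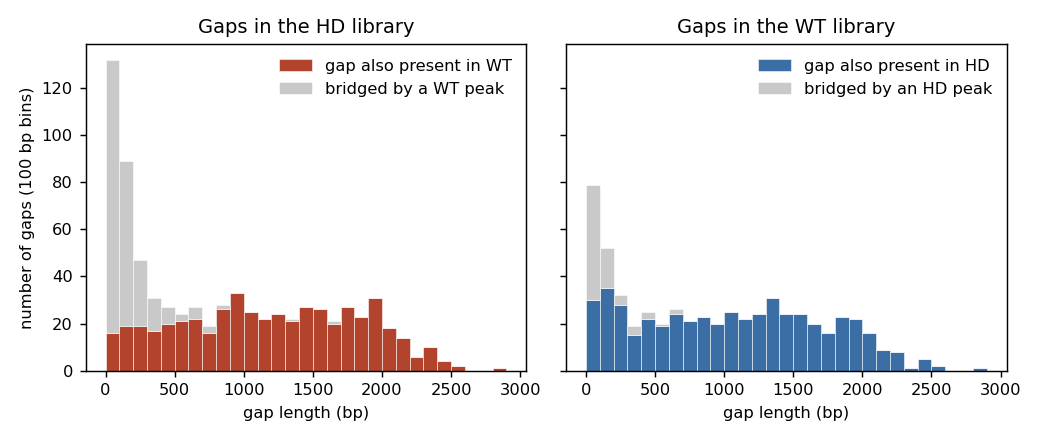
Number of gaps per 100 bp of gap length in the HD library (left) and the WT library (right). Gaps of the adjacent pairs, present in both libraries, are in colour, and gaps bridged by a peak of the other library are in grey on top. Grey includes regions in which each library had a gap at a different place, and only joined regions below 5000 bp mean covered length were counted. The grey part is largest below 200 bp and amounts to 250 gaps in HD and 80 in WT.

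The peaks beside a bridged gap were strongly unequal. In HD the lower scoring flank had a median score of 81.1 and the higher scoring one 979, and in 61.2% of gaps (54.9 to 67.3%) the lower score was under 100. In WT these medians were 84.1 and 652, and the share was 58.8% (47.2 to 69.6%). For comparison, neither region had an HD score below 100 in 420 of the 510 close pairs (82.4%, 78.8 to 85.6%). The WT value for the close pairs is not given here. The flanking HD peaks were 1086 and 2189 bp wide by the median, narrower and wider side, and the WT peak that bridged them 3534 bp. For the WT gaps the flanks were 1312 and 2316 bp and the bridging HD peak 2945 bp. The number of gaps moves with the depth of a library, which is unknown, and its part in the difference between 250 and 80 was not tested.

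Inside shared regions below 5000 bp mean covered length, the longest HD gap bridged in WT lay on chromosome 5 at 5262817 to 5264479. It measured 1663 bp. The HD peaks beside it were 1766 and 2280 bp wide with scores of 185 and 718, and the WT peak over it was 5516 bp wide with a score of 1567. The next lay on chromosome 7 at 137838301 to 137839688 (1388 bp, flanking HD scores 2162 and 80.9), on chromosome 17 at 46839258 to 46840113 (856 bp) and on chromosome 10 at 83108820 to 83109627 (808 bp). Among WT gaps bridged in HD inside such regions, the longest lay on chromosome 11 at 96687312 to 96688005 and measured 694 bp. It lay between WT peaks with scores of 645 and 56.0, under an HD peak of 4933 bp. Shorter ones followed at 113053691 to 113054290 on chromosome 12 (600 bp), at 57902039 to 57902562 on chromosome 2 (524 bp) and at 45097677 to 45098148 on chromosome 16 (472 bp). In each of these WT gaps a flanking WT peak had a score under 100.

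The 3 longest chains held 4 regions each, in every case with 1 peak of each library per region. On chromosome 5, from 24101822 to 24112429, the gaps were 280, 1375 and 184 bp in HD and 332, 1205 and 229 bp in WT. The fourth region there covered 2844 bp in HD and 2221 bp in WT. On chromosome 7, from 29155569 to 29167785, the gaps were 1617, 340 and 722 bp in HD and 1159, 177 and 529 bp in WT, all longer in HD. Strong and weak regions alternated along this chain, with scores of 1572, 239, 1651 and 194 in HD and 959, 157, 981 and 129 in WT. On chromosome 11, from 70039736 to 70054786, the gaps were 910, 987 and 2445 bp in HD and 503, 1022 and 1886 bp in WT, and the scores increased from region to region in both libraries. They were 55.9, 393, 443 and 3100 in HD and 57.6, 156, 538 and 2951 in WT.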

How the data were processed

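The deposited files are 1 peak list per library, with positions and a score per peak. The peak names carry the name MACS, whose version, settings and control were not given in the sources used here. CASAVA 1.8.2, BWA 0.5.9 and SAMtools stand in the submitters' processing notes, with the builds NCBIM37 and mm9, which are 1 assembly. The authors' score has no unit named in the files, runs from 50.01 to 3233.06 in both lists and was ranked and compared only within a list, apart from filters on a lowest score. Starts were counted from 1. Peaks were called per library, so edges and gaps can move with the depth of a library.

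Regions, gaps and edges were computed in Python 3.11.15 with pandas 2.3.3, numpy 2.4.6 and scipy 1.17.1; matplotlib 3.10.9 drew the plots. The code was tested on simulated lists. Shares have exact (Clopper-Pearson) 95% binomial intervals, and medians 95% order-statistic intervals. In regions with several peaks of a library, its outermost edges and summed lengths were used, and the highest score. Peaks of 1 library inside a gap were ignored.

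The regions, lists and measures were chosen with earlier results of these data known. Pairs are named by fixed rules: shortest and longest gaps and those just beyond the limit, largest gap differences and most and least alike widths among single-peak pairs with all scores of at least 100, highest lowest rank, longest chains, and longest bridged gaps. No region was assigned to a gene and no sequence was printed, since no genome of this build was used here.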

Additional observations from a re-analysis of the deposited data

How the results depend on the processing

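The counts of pairs and regions, the medians and shares of gaps, edges, widths and scores, and the counts of bridged gaps, 24 measures in all, were recomputed under 8 other settings where they applied, and 165 of 188 values stayed within the interval of the reported value or, for counts, within 1.5 times. The counts of bridged gaps do not use the largest gap allowed. Their values at 1 kb and 3 kb were thus fixed in advance and are among the 165. No median changed sign. The median gap difference stayed between 103 and 115.5 bp and the share of longer gaps in HD between 64.8 and 70.2%. A largest gap of 1 kb gave 265 pairs, 524 regions and a median joined gap of 421 bp, and 3 kb gave 768 pairs and a median of 1475 bp, which follows from the limit itself, and a WT width ratio of 1.46. Score ratios, shares above the median score, the wider region kept, displaced gaps and large length changes by score were added after seeing the data. Both regions scored above the median in 9.43% of pairs in HD and 11.7% in WT at 1 kb and in 16.9% in HD at 3 kb, and 8.13% of lower scoring regions were over 1.5-fold shorter in HD at 1 kb. With only peaks scoring at least 100, 63 gaps were over 1.5-fold longer and 20 shorter in HD, the HD width ratio was 1.46, and 98 HD and 33 WT gaps were bridged. The score ratio was then 2.44 in HD and 2.52 in WT, against 1.98 in HD and 2.10 in WT over 5 kb apart. Both regions were then above the median in 11.4% of pairs in WT. More than 1.5-fold shorter in HD were 3.12% of lower and 2.5% of higher scoring regions. With no upper limit on covered length the width ratios were 1.63 in HD and 1.62 in WT, and 439 HD and 129 WT gaps were bridged. For the width ratios, the score measures, the score minimum and the length limit the cause was not tested. With equal numbers of top scoring peaks 171 HD and 77 WT gaps were bridged. Chromosome shares, score classes and single pairs were not recomputed. No paired analysis was possible because there is a single library of each genotype. The unknown depth limits what a short gap or a weak neighbour can show.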

Other observations

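Close pairs occurred on all autosomes and the X chromosome, at unequal shares. Of the shared regions below 5000 bp, 8.52% on chromosome 7 (7.01 to 10.2%), 8.44% on chromosome 17 (6.56 to 10.7%), 7.66% on chromosome 19 (5.53 to 10.3%) and 7.47% on chromosome 11 (6.08 to 9.05%) had such a neighbour within 2 kb. The lowest shares were 3.25% on chromosome 18 (1.87 to 5.22%), 3.31% on X (1.97 to 5.18%) and 3.68% on chromosome 1 (2.58 to 5.08%). On the Y chromosome 0 of 4 did (upper bound 60.2%). Chromosomes differ in how densely their regions lie, and the part of this in the shares was not tested. The gap was longer in HD in more than 50% of pairs on each autosome and on X, with median differences from 11.0 bp on chromosome 6 (21 pairs) to 272 bp on X (9 pairs).

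In 6 of the 510 pairs a peak of only 1 library lay inside the joined gap, and these were named after their values were seen. HD peaks lay on chromosome 3 at 120860107 to 120860916 (score 75.7) and on chromosome 15 at 56525782 to 56526947 (119) and 95482950 to 95484157 (57.9). WT peaks lay at 17404721 to 17406098 on chromosome 7 (69.5), at 85496750 to 85497403 on chromosome 15 (57.9) and at 97388530 to 97389440 on chromosome 16 (64.9). Of these scores 5 were below 100, and the peaks filled 654 to 1378 bp of gaps of 1015 to 1753 bp, so that they lay from 22 to 353 bp from the region beside them.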
